A study of Mus musculus with 6 samples.

Results

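The interferon-inducible GTPases described here are 10 genes of 2 families, the immunity-related GTPases (IRGs) Igtp, Iigp1, Ifi47, Irgm1, Irgm2 and Tgtp1 and the guanylate-binding proteins (GBPs) Gbp2, Gbp3, Gbp4 and Gbp6. Their probes were chosen by name alone: a probe counted where its name on the array was a member's symbol or an older symbol of it, which gave 20 probes among the 45281 of the table. Of the 10 genes, 8 were tested among 12426 genes in all, and all 8 were detected on each of the 6 arrays. Gene expression was measured on Illumina mouse bead arrays in DN3 thymocytes, immature T cells of the thymus that carry neither CD4 nor CD8 and must make a working T cell receptor beta chain to go on. They were sorted as CD44 negative, CD25 positive cells from C57BL/6 mice, with B cells, NK cells, gamma-delta T cells and CD11b or CD11c positive cells gated out. The groups were 3 wild-type samples (WT) and 3 samples from mice with a transgene for the microRNA miR-185 (miR-185 Tg), and the study asked which genes miR-185 acts on in these cells. The promoter that drives the transgene, the number of founder lines and the age of the mice are not given in the sources used here. Nor is it stated that each sample came from its own mouse, and the spread behind every p-value may therefore be technical.

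Both families are GTP-binding proteins of cell-autonomous immunity, made in most mouse cells after exposure to interferons and above all to interferon gamma. In mice the effector IRGs Iigp1, Tgtp1 and Ifi47 coat the vacuoles in which pathogens such as Toxoplasma live and help to break them open, while the regulators Irgm1, Irgm2 and Igtp sit on the cell's own membranes and keep the effectors switched off there. The GBPs are larger relatives that assemble on the same vacuoles and on bacteria. Interferon gamma switches genes on through DNA elements called gamma-activated sites (GAS) and, by way of the factor IRF1, through interferon-stimulated response elements (ISRE).

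The promoters of the tested genes were searched for both elements. Whether a match bears on a change of the gene in these cells was not tested. The RefSeq promoter table (assembly GRCm38.p6, 250 bases before to 50 bases after the start of the gene) held 7 of the 10 members, with 8 promoters. GAS was searched as TTCNNNGAA and ISRE as GAAANNGAAA, each on both strands, and the matches of the 2 motifs did not overlap in any of these promoters. An ISRE match was present in 6 of the 7 members and a GAS match in 3, against 3.44% and 8.3% of all 32851 promoters, and both matches together in 0.454% of them. The stretches with the matches in capitals, printed 5′ to 3′ along the gene, were as follows. The Igtp stretch lies at chr11:58199501-58199541 on the plus strand, that of Irgm2 at chr11:58214892-58214932 on the plus strand and that of Tgtp1 at chr11:48992304-48992344 on the minus strand.
Igtp: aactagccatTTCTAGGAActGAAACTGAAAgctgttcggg
Irgm2: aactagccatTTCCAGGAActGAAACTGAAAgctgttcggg
Tgtp1: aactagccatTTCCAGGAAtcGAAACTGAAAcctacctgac
In these 3 genes the GAS match comes first and the ISRE match follows after 2 bases. Igtp and Irgm2, which neighbour each other, have the same letter at 40 of the 41 positions, and Igtp and Tgtp1 at 31. Searched in this order and spacing on either strand, the pair occurred in 5 of the 32851 promoters, those of Igtp, Irgm2, Tgtp1, Tgtp2 and the IRG relative Gm12185. This search was set up after the promoters had been read.

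The regulator Irgm1 and the GBP genes Gbp2 and Gbp3 had ISRE matches and no GAS match in this window. The Irgm1 stretch lies at chr11:48871425-48871460 on the minus strand, that of Gbp2 at chr3:142620594-142620623 and that of Gbp3 at chr3:142559989-142560024, both on the plus strand.
Irgm1: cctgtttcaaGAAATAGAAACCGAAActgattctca
Gbp2: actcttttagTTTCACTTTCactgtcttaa
Gbp3: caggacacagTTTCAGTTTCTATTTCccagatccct
Irgm1 and Gbp3 each held 2 ISRE matches that share letters, and in Gbp2 and Gbp3 the match reads along the opposite strand. The promoter of Ifi47 and a second promoter of Gbp3 held neither. A match is a run of letters and not a measured binding site.

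Of the 8 tested GTPase genes, 4 rose in miR-185 Tg cells and 0 fell, and all 4 were IRGs: Igtp, Irgm2, Tgtp1 and Ifi47 (limma, Benjamini-Hochberg adjusted p under 0.05). Among all 12426 genes 2.55% were called higher and 1.68% lower. In 5 of the 8, these 4 and Gbp3, every Tg array lay above every WT array, which held for 14.9% of all genes. The median log2 fold change was 1.19 over the 5 tested IRGs and 0.76 over the 3 tested GBPs, beside -0.0014 over all genes. The members and their families were chosen with earlier results of these data known, so these counts and medians describe them and are not a test. In RNA from a cell population, a change in the number of cells that express a gene and a change in RNA per cell cannot be told apart.

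Among the regulators, Igtp (also called Irgm3) changed most. Its deposited bead intensities were 587, 837 and 663 in WT 1, 2 and 3 and 2638, 2656 and 1770.4 in Tg 1, 2 and 3. After normalisation these became log2 values of 8.81, 9.63 and 9.25 in WT and of 11.30, 11.06 and 11.02 in Tg. The lowest Tg array stood well above the highest WT array, and the normalised Tg values lay closer together than the normalised WT values. The deposited intensities did not lie closer together in Tg. Igtp rose by 1.90 ± 0.23 on the log2 scale (SE), or 3.73-fold, with an adjusted p = 0.0092 (limma).

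Irgm2, the regulator whose gene lies beside Igtp, had the same order of arrays. Its log2 values were 8.03, 8.68 and 8.32 in WT 1, 2 and 3 and 10.07, 9.95 and 9.45 in Tg 1, 2 and 3. All 3 Tg arrays were above all 3 WT arrays, with Tg 3 the lowest of them. Irgm2 rose by 1.48 ± 0.25 on the log2 scale (SE; adjusted p = 0.024, limma), which is 2.78-fold.

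Irgm1, whose loss in mice impairs resistance to intracellular bacteria, gave different answers at its 3 probes. The brightest probe stood for the gene in the test and had deposited intensities of 10491, 5806 and 6010.5 in WT 1, 2 and 3 and of 6701, 7627 and 11225 in Tg 1, 2 and 3. The groups overlapped there, with WT 1 and Tg 3 the highest arrays, and the groups' log2 means differed by 0.16 ± 0.28 (SE; adjusted p = 0.81, limma). The next probe was far dimmer, at 334, 413 and 365 in WT and 718, 613 and 545 in Tg, and every Tg array lay above every WT array. In a fit over all 18597 kept probes, in which 1.93% were called higher, this second probe showed a log2 difference of 0.91 ± 0.23 (SE; adjusted p = 0.077, limma). The remaining probe was detected on 3 of the 6 arrays and showed a difference of 0.41 ± 0.31 (SE; adjusted p = 0.53, limma). All 3 carry the older name of Irgm1 in the table, and which transcripts each one binds was not analysed here.

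The effector IRGs Tgtp1 and Ifi47 were higher in Tg cells by smaller amounts. Tgtp1, whose protein is also called Irgb6, had log2 values of 5.16, 5.60 and 5.14 in WT 1, 2 and 3 and of 6.78, 6.56 and 6.15 in Tg 1, 2 and 3. The groups did not overlap, and it rose by 1.19 ± 0.24 (SE; adjusted p = 0.037, limma). Its probe was named for Tgtp, which is an older name of both Tgtp1 and its close copy Tgtp2, so the share of each gene is uncertain. Without background correction the log2 fold change of Tgtp1 was 0.49, and a second Tgtp probe was detected on none of the arrays (0). Ifi47, whose protein is also called Irgd, had log2 values of 10.16, 10.33 and 10.17 in WT 1, 2 and 3 and of 10.98, 10.81 and 11.34 in Tg 1, 2 and 3. The WT arrays lay close together and every Tg array was above them. Ifi47 rose by 0.82 ± 0.18 on the log2 scale (SE; adjusted p = 0.048, limma), or 1.77-fold.

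Iigp1, the best studied effector IRG, was not measurable in either group. Its 3 probes were at background, with deposited intensities between 94.7 and 114.3, and the 1 detected at all passed on 2 of the 6 arrays, both of them Tg. A further probe named for a provisional symbol, which the naming rule does not take in, was detected on none (0).

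**Figure D1:**
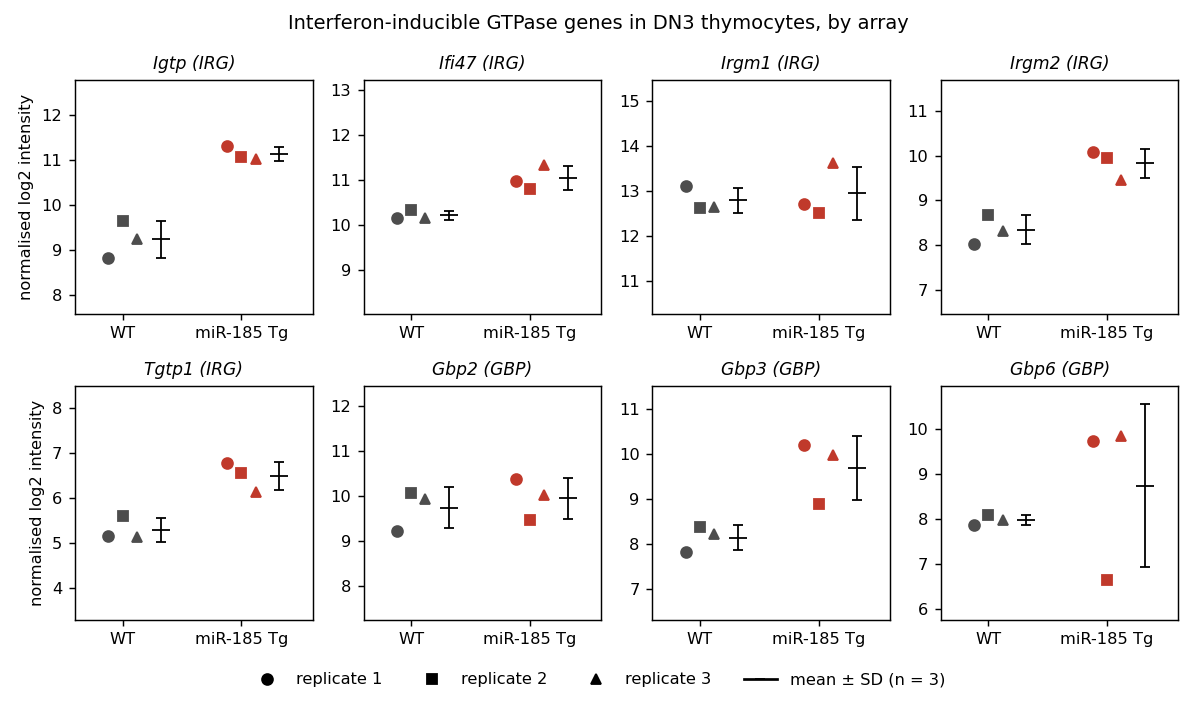
Normalised log2 intensity of the 8 tested GTPase genes on each array (points, shaped by replicate number; WT grey, miR-185 Tg red) with mean and SD of 3 arrays. Every panel spans the same number of log2 units. In Igtp, Ifi47, Irgm2, Tgtp1 and Gbp3 all Tg arrays lie above all WT arrays, and in Gbp6 the Tg 2 array lies below them.

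The 3 tested GBP members did not pass the test, and their Tg arrays disagreed with each other. Gbp3, a GBP of the chromosome 3 cluster, had log2 values of 7.83, 8.37 and 8.21 in WT 1, 2 and 3 and of 10.21, 8.89 and 9.98 in Tg 1, 2 and 3. The groups did not overlap, but Tg 2 was much closer to the WT arrays than Tg 1 and Tg 3 were. The log2 difference between the groups was 1.55 ± 0.36 (SE; adjusted p = 0.053, limma). It was just short of a call, although larger than the 1.48 of Irgm2, which was called. A second Gbp3 probe had 8.13 in Tg 2, just above the WT range of 7.41 to 8.11, and 9.99 and 9.89 in Tg 1 and Tg 3.

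Gbp6, a GBP of the chromosome 5 cluster, split the Tg arrays furthest. Its log2 values were 7.88, 8.09 and 7.99 in WT 1, 2 and 3 and 9.74, 6.66 and 9.85 in Tg 1, 2 and 3. Tg 1 and Tg 3 were above all WT arrays, whereas Tg 2 was below all of them. Its log2 difference was 0.76 ± 0.77 (SE; adjusted p = 0.64, limma), and without Tg 2 it was 1.79 (adjusted p = 0.0027, limma). The other kept probe of Gbp6 likewise had Tg 2 below and Tg 1 and Tg 3 above all WT arrays. Its values were 8.07, 5.05 and 7.63 in Tg 1, 2 and 3 against 6.11 to 6.62 in WT. The standard error between the beads of a probe was at most 5.46% of its intensity for the Gbp6 probe tested, whose deposited intensity was 190.1 in Tg 2 and 327 to 346 in WT.

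Gbp2, of the same cluster as Gbp3, varied within both groups. Its log2 values were 9.22, 10.06 and 9.94 in WT 1, 2 and 3 and 10.37, 9.47 and 10.01 in Tg 1, 2 and 3. The groups overlapped, and the log2 means differed by 0.21 ± 0.31 (SE; adjusted p = 0.76, limma). A second kept probe of Gbp2 near the detection limit had a log2 fold change of -0.20. Gbp4 had 1 probe, which was detected on none of the arrays (0). Its name was also once used for Gbp3.

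**Figure D2:**
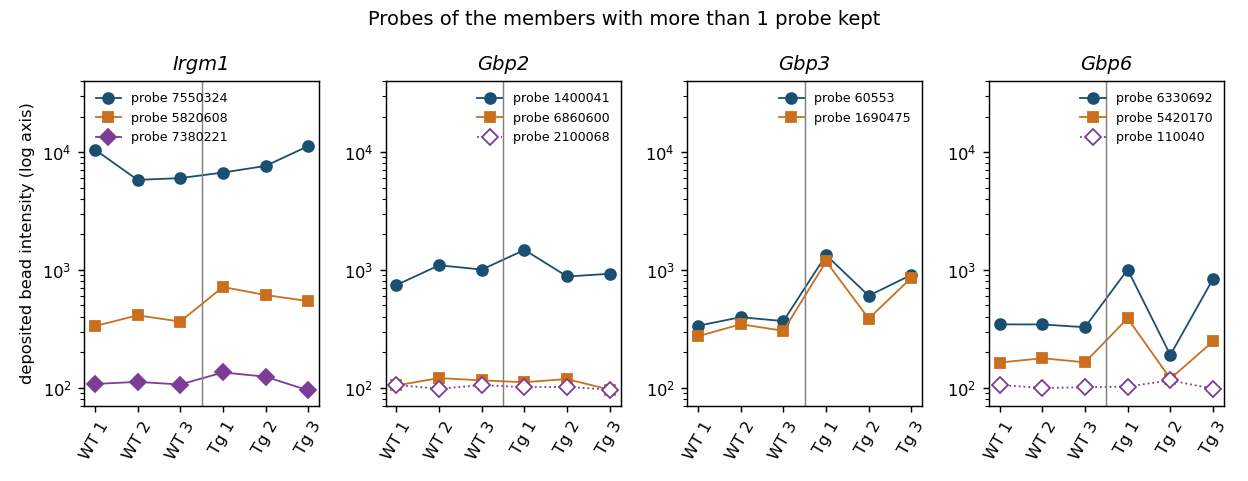
Deposited bead intensity (log axis) of each probe of the 4 members with more than 1 probe kept, by array. Lines only join values of one probe, and open symbols mark probes that were not kept. The brightest Irgm1 probe is highest in WT 1 and Tg 3, unlike the second one, while both kept probes of Gbp3 and of Gbp6 are lower in Tg 2 than in Tg 1 and Tg 3.

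The tested members of the families were also averaged by array. Expressed as the difference from the WT mean and averaged over the tested members, the IRGs stood at 1.19, 1.00 and 1.14 on the log2 scale in Tg 1, 2 and 3. The GBPs stood at 1.48, -0.28 and 1.33 on the same arrays, with Gbp6 at -1.33 on the array Tg 2. In the normalised values of Tg 2, 4 of 5 IRGs but 1 of 3 GBPs were above every WT array. In each family 1 gene was below every WT array. The IRG below was Irgm1, whose deposited intensity in Tg 2 (7627) was above those in WT 2 (5806) and WT 3 (6010.5). Over all genes, 41.3% were above and 39.4% below every WT array in Tg 2, so either position is common on that array. No test over the members of a family was made.

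Set against all genes, the Tg 2 value of Gbp6 lay at the low end. The value in Tg 2 minus the mean of Tg 1 and Tg 3 was -3.14 for Gbp6, and 0.137% of the 12426 genes had a difference as low or lower. It was -1.21 for Gbp3 and -0.72 for Gbp2, at or below which 8.19% and 15.5% of genes lay. It was -0.65 for Irgm1 and -0.35 for Ifi47, at or below which 17.2% and 26.8% of genes lay. For Igtp it was -0.10, for Irgm2 0.18 and for Tgtp1 0.095, close to the median of 0.054 over all genes. All of these are differences of normalised values. The deposited intensities of Ifi47 were 2173, 2194 and 2189 in Tg 1, 2 and 3. The range over the Tg arrays was 3.20 for Gbp6 against 0.21 over the WT arrays. The array Tg 2 correlated with the other 5 at 0.935 to 0.955 across genes, the other pairs at 0.962 to 0.997, with genes not being independent replicates.

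**Figure D3:**
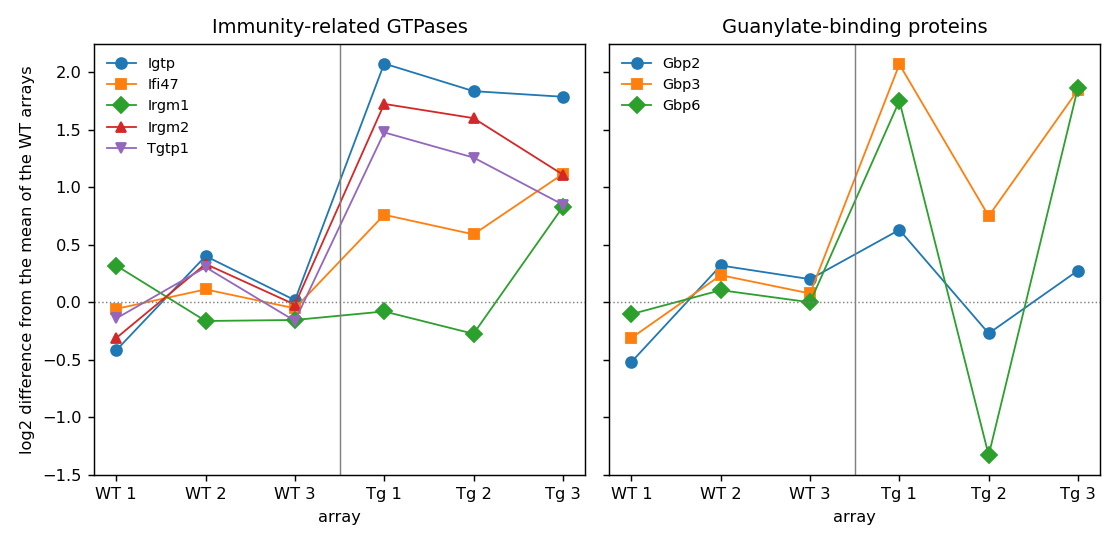
Log2 difference of each tested member from its mean over the WT arrays, for IRGs (left) and GBPs (right), on each of the 6 arrays. Lines only join values of one gene. On Tg 2 the IRGs other than Irgm1 keep a positive difference, whereas Gbp3 is at 0.75, Gbp2 at -0.27 and Gbp6 at -1.33.

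The calls rested on all 6 arrays together. Without WT 1, WT 3 or Tg 1 none of the members (0) passed, and without WT 2 only Igtp did (adjusted p = 0.040, limma). Without Tg 3 the 3 genes Igtp, Irgm2 and Tgtp1 passed, and without Tg 2 there were 6, with Gbp3 and Gbp6 added to the 4. Over all genes the count moved from 526 to 1 without WT 1, to 2 without WT 3, to 47 without WT 2, to 50 without Tg 1, to 1706 without Tg 2 and to 656 without Tg 3. The log2 fold change of Igtp ran from 1.68 to 2.10 over these 6 fits and that of Irgm2 from 1.32 to 1.67. WT 2 and WT 3 resembled each other more than any other pair (r = 0.997 across genes). With the 2 averaged as 1 sample, 1 member, Igtp, passed (adjusted p = 0.046, limma). An exact two-sided permutation test of 3 arrays against 3 gave p = 0.1 for Igtp, Irgm2, Tgtp1, Ifi47 and Gbp3, the smallest p this design allows.

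**Figure D4:**
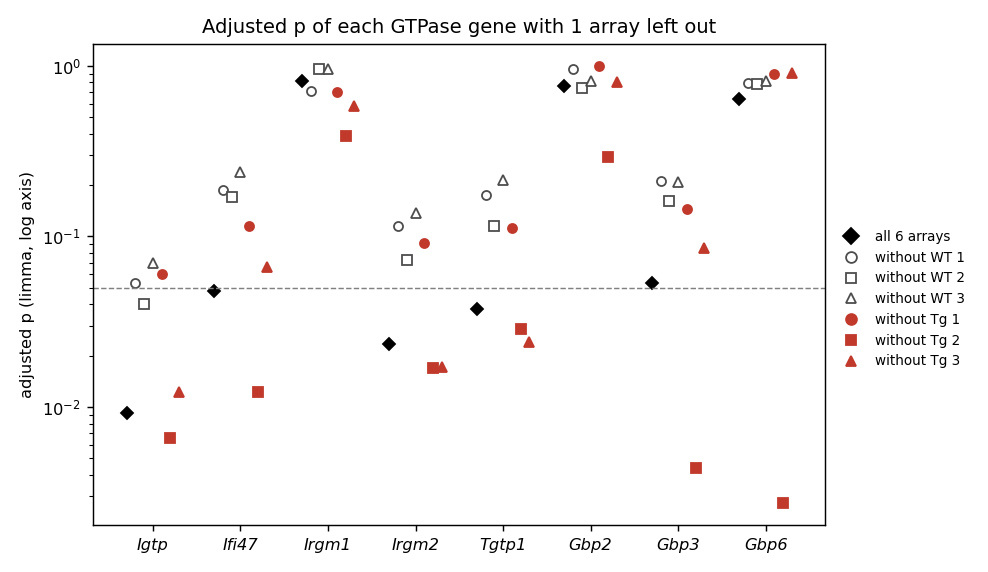
Adjusted p (limma, log axis) of each tested member with all 6 arrays (diamonds) and with 1 array left out (circles, squares and triangles for replicates 1, 2 and 3; open grey for WT, red for Tg). The dashed line marks 0.05. Gbp3 and Gbp6 fall below it when Tg 2 is left out, and Igtp stays at or under 0.070 throughout.

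Other genes of these and related GTPase families were read from a list of 15, of which 9 were on the array and 5 were tested. Of these, 3 were called higher and 0 lower, beside 2.55% and 1.68% of all genes. However, 1 of the 3, Gbp11, had passed the detection filter only through its Tg arrays. Gbp5, a GBP that promotes inflammasome assembly, had log2 values of 4.45, 4.95 and 5.20 in WT 1, 2 and 3 and of 7.06, 6.08 and 6.24 in Tg 1, 2 and 3. Every Tg array, Tg 2 included, was above every WT array, and Gbp5 rose by 1.59 ± 0.31 (SE; adjusted p = 0.035, limma). It was detected on 2 WT arrays and 3 Tg arrays. Its WT 1 value lay below 4.63, the lowest signal of a detected probe on that array, so the size of its rise is uncertain. Gbp11 was detected on no WT array and on all 3 Tg arrays, so that it could enter the test only by being high in Tg, and its p is no independent support. Its Tg level was higher by at least 1.53-fold. The measured log2 means were 4.47 in WT and 5.29 in Tg, and the adjusted p = 0.041 (limma) belongs to these measured values. The Gbp11 bound sets the Tg mean against, per WT array, the higher of the lowest signal among detected probes and the probe's own. Mx2, a dynamin-like GTPase that restricts viruses, rose by 1.28 ± 0.26 (SE; adjusted p = 0.039, limma).

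Gvin1, a very large interferon-inducible GTPase, divided the Tg arrays as Gbp6 did. Its log2 values were 6.28, 7.37 and 7.27 in WT 1, 2 and 3 and 10.41, 7.07 and 9.95 in Tg 1, 2 and 3. Tg 2 lay within the WT range and the other Tg arrays far above it. Its log2 difference was 2.17 ± 0.80 (SE; adjusted p = 0.18, limma), and the value in Tg 2 minus the mean of Tg 1 and Tg 3 was -3.11. Irgq, a distant relative of the IRGs, showed a log2 difference of -0.09 ± 0.22 (SE; adjusted p = 0.87, limma). Gm12250, the IRG effector Irgb10, and a transcript named only for a RIKEN clone were the other kept probes read for the IRG family, and both were picked after their values were seen. The latter showed a log2 difference of 0.69 ± 0.26 (SE; adjusted p = 0.20, limma), and its groups overlapped. Gm12250 rose by 1.82 ± 0.28 (SE; adjusted p = 0.018, limma), with log2 values of 6.25, 6.92 and 6.60 in WT and 8.76, 8.07 and 8.39 in Tg 1, 2 and 3.

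**Figure D5:**
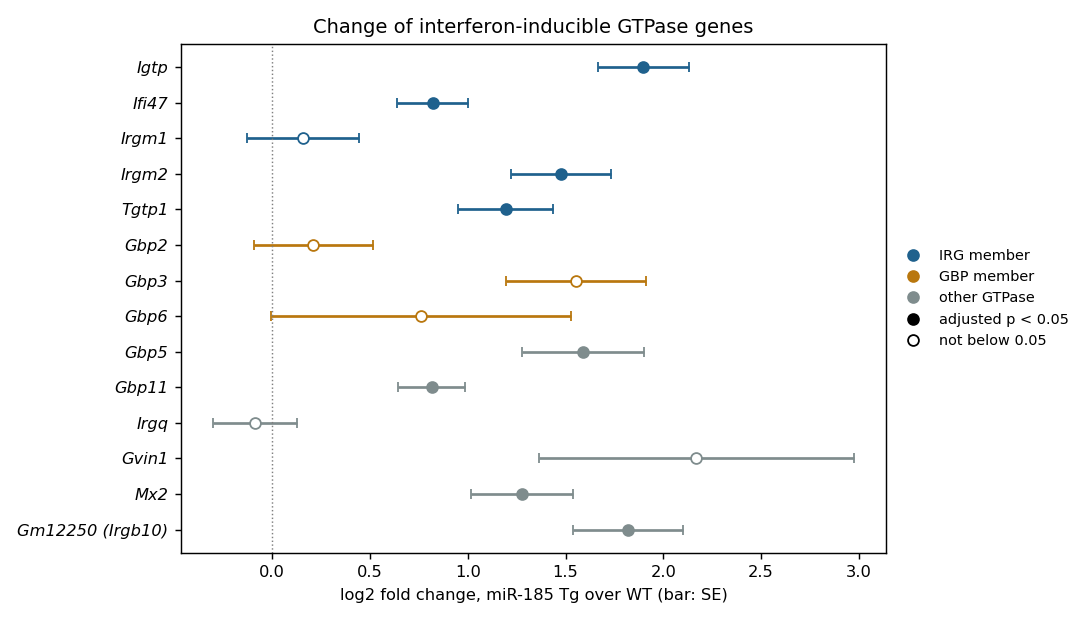
Log2 fold change of miR-185 Tg over WT with its SE for the tested IRG members (blue), GBP members (amber) and other GTPase genes (grey); filled points have an adjusted p below 0.05. Points for Igtp, Irgm2, Tgtp1, Ifi47, Gbp5, Gbp11, Mx2 and Gm12250 are filled, and those for the tested GBP members and Gvin1 are open with longer bars for Gbp6 and Gvin1. The point for Gbp11 is the fitted value, not the bound.

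Genes of the interferon gamma pathway, both those that carry the signal and other targets of it, were read from a list of 24. Of these, 18 were tested, 4 rose and 0 fell, beside 2.55% called higher and 1.68% lower over all genes. Their median log2 fold change was 0.52, beside -0.0014 over all genes. Ifng, the ligand, was detected on the Tg 3 array alone, at both of its probes. Their intensities there were 152.7 and 153.1, against 101 to 107 on the other arrays. The receptor chain genes Ifngr1 and Ifngr2 showed log2 differences of 0.43 ± 0.22 and 0.35 ± 0.63 (SE; adjusted p = 0.33 and 0.81, limma). The kinase genes Jak1 and Jak2 showed 0.42 and 0.088 (adjusted p = 0.61 and 0.95, limma).

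Among the transcription factors of this pathway, Irf1 had log2 values of 11.57, 11.70 and 11.74 in WT 1, 2 and 3 and of 12.65, 12.63 and 12.13 in Tg 1, 2 and 3. All Tg arrays were above all WT arrays, and Irf1 rose by 0.80 ± 0.17 (SE; adjusted p = 0.041, limma). Irf9, the DNA-binding part of the complex formed after type I interferon, rose by 1.10 ± 0.22 (SE; adjusted p = 0.036, limma). Irf8 and Socs1, which encodes a feedback inhibitor of JAK kinases, showed differences of 0.40 and 0.93 (adjusted p = 0.53 and 0.23, limma). The other 2 genes of this list that rose were Nlrc5, an activator of class I MHC genes, by 2.45 ± 0.29 and the immunoproteasome gene Psmb9 by 1.50 ± 0.14 (SE). Cxcl9, Cxcl10 and Ido1, strongly induced by interferon gamma in macrophages, were detected on no array.

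Genes known best for their response to type I interferon were read from a list of 30. Of these, 24 were tested. Beside 2.55% called higher and 1.68% lower over all genes, 12 of the 24 rose, 0 fell and 12 did not pass. Their median log2 fold change was 1.32. The 4 with the smallest p were Ifitm3, which blocks viral entry, the oligoadenylate synthetase-like gene Oasl2, the ISG15 protease gene Usp18 and the RNA helicase gene Dhx58. Ifitm3 rose by 2.38 ± 0.24 and Dhx58 by 1.95 ± 0.24 on the log2 scale (SE; adjusted p = 0.0062 and 0.0096, limma). Dhx58 had values of 9.61, 9.18 and 9.07 in Tg 1, 2 and 3 against at most 7.61 in WT, so all Tg arrays were above WT. In Tg 2, 19 of the 24 tested genes of this list were above every WT array. The 4 genes Ifit2, Bst2, Eif2ak2 and Samd9l were below every WT array. Over all genes 41.3% were above and 39.4% below every WT array in Tg 2. Oas1a and Oas3, which are among the 24, were detected on 0 WT arrays and on 3 Tg arrays. They could enter the test only by being high in Tg. Neither was called, and their part in these counts and in the median is no independent support. Samd9l had log2 values of 12.03, 8.06 and 12.08 in Tg 1, 2 and 3 against 9.63 to 9.71 in WT, the same order as Gbp6.

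Markers of the sorted cells and of other cells were read on the same arrays. All 14 DN3 genes of the list were tested. Of them 4, Il2ra, Dtx1, Cd3g and Cd3d, rose, beside 2.55% of all genes called higher. The list's median log2 fold change was 0.43 with 10 of 14 positive, whereas Rag1, Rag2, Bcl11b and Gata3 had negative differences, none of them called. The summed log2 level of the 14 was 15.91 to 16.10 in WT and 16.46 to 16.51 in Tg. Such sums are taken over unlogged levels, so the brightest genes of a list weigh most. Of 14 myeloid and dendritic genes 7 were tested and 1, the lysozyme gene Lyz1, rose, with a summed log2 level of 9.05 to 10.11 in WT and 10.88 to 10.94 in Tg. The related gene Lyz2 was also higher on every Tg array without passing (adjusted p = 0.12, limma), whereas the list's median log2 fold change was -0.05 with 3 of 7 positive. S100a8 was detected on 3 WT arrays and 0 Tg arrays. It could enter the test only by being high in WT, so its p is no independent support. Its level was at least 3.37-fold lower in Tg, with a bound formed as for Gbp11 but on the Tg arrays. The fit of its measured values gave a log2 difference of -2.16 (adjusted p = 0.081, limma). The myeloid genes Itgam, Itgax, Fcgr3 and Adgre1 were detected on no array. Fcer1g was detected on all 6 arrays, with log2 means of 6.04 in WT and 5.95 in Tg. Csf1r was detected on 4 arrays, Cd68 and Ctss on 3, Tyrobp and Siglech on 2 and S100a9 on 1. Of 10 NK and innate-like genes 3 were tested and 1, Nkg7, rose. The summed log2 level of the 3 was 10.42 to 10.52 in WT and 11.50 to 11.95 in Tg. Prf1 was detected on all 6 arrays, with log2 means of 8.78 in WT and 8.99 in Tg (adjusted p = 0.89, limma). Zbtb16 was detected on 1 WT array and 3 Tg arrays, and every Tg array was above every WT array (adjusted p = 0.45, limma). Tbx21 was detected on 1 array, and Klrb1c, Ncr1, Gzmb, Klrd1 and Il2rb were detected on no array. B cell and thymic epithelium lists each had 1 gene tested and 0 called. Of 7 later thymocyte genes 4 were tested and 1, Itm2a, fell. The summed red blood cell level ran from 8.65 to 13.86 over the WT arrays and from 9.93 to 11.03 over the Tg arrays, with 0 genes called. The part of other cells in the GTPase values was not tested.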

How the data were processed

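The deposited table of probes came from GenomeStudio 1.9.0 and was not normalized, per the file headers. It gives for each probe the mean bead intensity, its SD between beads, the number of beads (a median of 41 to 42) and a detection score, a fraction from 0 to 1 deposited by the authors and read here as 1 minus a detection p. The authors' deposited series values are the log2 of a gene table averaged over probes, without normalization between arrays (largest difference 6.3e-07). The precision is limited by the number of arrays, 3 a group.

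Intensities were corrected with normexp from the detection p (offset 16) and quantile normalized, as in neqc. Probes detected (p under 0.05) on at least 3 of 6 arrays were kept, 18597 of 45281, and the brightest kept probe stood for a gene. The 12426 genes were fitted with lmFit and eBayes with a trend (limma 3.58.1, R 4.3.3) and a call needed an adjusted p (Benjamini-Hochberg) under 0.05. Names were matched to RefSeq symbols and synonyms (GRCm38.p6): of 30774 names 15991 matched a symbol, 5827 a synonym and 8956 were kept. Promoter sequences are RefSeq's.

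The members and lists were chosen with earlier results of these data known. Named are all members, all tested genes of the related GTPase list, the ligand, receptor, kinase and factor genes of the interferon gamma list (except a gene not reported here), 4 type I genes with the smallest p, and the 8 genes most alike in profile; Nlrc5, Psmb9, Gm12250 and the cell markers were named after their values were seen. Alternatives covered background, normalization, filter, probe rule, variance model, weights for arrays, the replicate number as a block, leaving out each array, and the average of WT 2 and WT 3. A second Irgm1 probe was added after seeing the data.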

Additional observations from a re-analysis of the deposited data

How the results depend on the processing

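The 4 GTPase calls (526 genes in all) became 2 without a detection filter and 2 with a replicate block, where 312 and 264 genes were called in all. They became 1 with WT 2 and WT 3 averaged (36 in all) and 0 to 6 with 1 array left out (1 to 1706 in all). Median scaling gave 3 (310 in all) and array weights 6 (4472 in all). The IRG median of 1.19 became 0.78 without background correction, 0.80 with offset 50, 0.63 in the authors' series values, 1.01 without a filter, 1.44 with array weights and 1.04 to 1.39 with 1 array left out. The GBP median of 0.76 became 0.38 in the authors' series values, 0.49 without a filter, 1.63 with array weights and 0.21 to 1.79 with 1 array left out. Without a filter and in the series values the otherwise untested Iigp1 and Gbp4 enter these medians. Signs turned only for uncalled genes: Irgm1 to -0.18 without Tg 3 and Gbp2 to -0.049 without WT 1, within ranges up to 0.38 and 0.45 with 1 array left out. Without background correction and with offset 50 dim genes are compressed by construction; for the rest the cause was not tested. Ifi47 lost its call in 13 of 19 alternatives, Tgtp1 in 8, Irgm2 in 5 and Igtp in 3 (adjusted p up to 0.070, limma). The replicate numbers were not shown to pair the samples: same-numbered arrays had correlations of deviations of -0.25, 0.11 and -0.22, and Igtp and Irgm2 kept their call with the block (adjusted p = 0.013 and 0.040, limma). Signal over background limits Iigp1, Gbp4, Tgtp1, Gbp5, Gbp11 and Casp4.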

Other observations

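Over the 6 arrays, the mean centred profile of the 8 tested GTPase genes was compared with every other tested gene whose SD was at least 0.5. The 8 most alike had Pearson correlations of 0.984 to 0.993 (n = 6 arrays, which fall into 2 groups, so this describes likeness and is not tested). They included Casp4 and Casp1, inflammatory caspases, Gimap6, another lymphocyte GTPase gene, and Ifit3, an interferon-induced gene. The other 4, LOC100038882, LOC380763, A130015P11RIK and 6330500D04RIK, carried names of clones or predicted genes. Casp4 had log2 values of 4.44, 4.97 and 4.70 in WT 1, 2 and 3 and of 7.89, 6.22 and 7.89 in Tg 1, 2 and 3, so its Tg 2 array was the lowest of the Tg arrays but above WT. Casp1 had 8.58, 9.17 and 9.10 in WT and 11.42, 10.21 and 11.29 in Tg, with the same order. The Casp4 values in WT 1 (4.44) and WT 3 (4.695) lay below 4.633 and 4.701, the lowest signals of detected probes there. Casp4 thus needed its Tg arrays to pass the detection filter, and the size of its rise is uncertain.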
